A study of Mus musculus with 9 samples.

Results

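Cytosolic ribosomal protein genes were followed across 9 RNA sequencing libraries of RAW 264.7 cells, a mouse macrophage line transformed by Abelson leukaemia virus. The genes were chosen by symbol: Rps or Rpl names of the regular numbered form, the stalk genes Rplp0 to Rplp2 and numbered paralogs ending in a, x, y or l, without pseudogene names and with at least 100 counts summed over the libraries. This gave 78 of the 51826 genes in the count table, 30 of the small (40S) subunit and 48 of the large (60S) subunit. All 78 passed the filter on low counts, which left 14458 genes to test. At the edge of the rule, the members with the fewest summed counts were Rpl3l with 124 and Rpl6l with 1273, and the paralogs Rpl10l, Rpl39l and Rps4l, listed at 0 counts, were not taken. Rpl6l is annotated as a processed pseudogene in GENCODE M21, and 276 further genes of the table carry a ribosomal pseudogene name.

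The ribosome is built from ribosomal RNA and one copy of most of these proteins, so a cell makes the proteins in nearly equal amounts. Many of their mRNAs begin with a C followed by an unbroken stretch of pyrimidines, the 5′ terminal oligopyrimidine (TOP) tract, which ties their translation to the growth-sensing kinase mTORC1. In macrophages, Toll-like receptor signals redirect transcription toward inflammatory genes, and several ribosomal proteins are known to act outside the ribosome in stress and inflammation.

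The study asked how calycosin, an isoflavone of Astragalus root, acts on inflammatory macrophages. Vehicle cells (3 libraries) received no lipopolysaccharide (LPS). LPS cells (3 libraries) received the bacterial product LPS, a Toll-like receptor 4 ligand, at 300 ng/mL for 6 h. Calycosin plus LPS cells (3 libraries) were first held in calycosin at 100 µg/mL for 24 h and then given the same LPS dose for the same 6 h. No library represents calycosin without LPS, so the last group can be compared only with cells that differ in LPS exposure or with LPS cells. The labels call the libraries of a group biological replicates of one cell line. Levels per library are given as CPM, the counts of a gene scaled to one effective library size, which is the total count times a composition factor (TMM, edgeR's trimmed mean of log ratios).

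Total counts ran from 27784737 to 38524105 per library. The 8 macrophage markers were all tested and summed to 4810 to 5357 CPM in vehicle, 4932 to 5214 CPM in LPS and 3477 to 4172 CPM in calycosin plus LPS libraries. The 20 markers of other cell types summed to 1.25 to 6.97 CPM, 11 of them with 0 counts in every library; the 3 endothelial ones were highest in LPS, at 4.15 to 6.27 CPM against 0.391 to 0.852 in vehicle and 0.845 to 1.17 in calycosin plus LPS, and their part in the results was not tested. In 2 libraries the composition differed from the rest of their group. Vehicle replicate 3 had 21.9% of its counts on mitochondrially encoded genes against 3.79% and 3.68% in vehicle replicates 1 and 2, and calycosin plus LPS replicate 2 had 7.45% against 17.2% and 19.4% in replicates 1 and 3. The LPS libraries lay between 13.0% and 14.7%. The main counts of calls in each comparison are therefore also given without these libraries; the part that the mitochondrial share had in the results was not tested.

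Sequence around the annotated transcription start was available from RefSeq (GRCm38.p6) for 57 of the 78 genes. The windows below hold 15 bases before the start and 15 from it on, 5′ to 3′ on the transcribed strand. Capitals mark an unbroken run of at least 6 C or T on that strand which covers the start or begins within 3 bases of it, the TOP-like feature. They are shown for genes that fell with LPS (Rps21, Rpl34, Rpl13a, Rpl37a), for a gene that fell with calycosin plus LPS against LPS (Rps18) and for genes that rose with LPS (Rps6, Rps10, Rpl24).
Rps21 (chr2:180257364-180257393, plus strand): taccgaggacccgCCCTCCTgcccaatagt
Rpl34 (chr3:130730323-130730352, minus strand): CCTTCCTTTTCCTCTTCCggggacggtgct
Rpl13a (chr7:45128731-45128760, minus strand): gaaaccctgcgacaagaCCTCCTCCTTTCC
Rpl37a (chr1:72711245-72711274, plus strand): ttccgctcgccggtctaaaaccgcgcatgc
Rps18 (chr17:33955651-33955680, minus strand): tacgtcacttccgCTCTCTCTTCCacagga
Rps6 (chr4:86857353-86857382, minus strand): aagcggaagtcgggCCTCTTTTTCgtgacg
Rps10 (chr17:27635230-27635259, minus strand): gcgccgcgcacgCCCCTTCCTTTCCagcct
Rpl24 (chr16:55966260-55966289, plus strand): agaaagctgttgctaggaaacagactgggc
Among the 57 genes with a sequence, 24 (42.1%) had such a run at an annotated start, against 13.7% of the 9702 tested genes with a sequence and 13.5% of all 27025 genes in the sequence table. The ETS-type letters CCGGAAGT, on either strand of the 300 bases from 250 before to 50 after the start, were found in 11 (19.3%) of the 57 genes and in 9.52% of the tested genes; these letters cannot lie inside a run of 6 pyrimidines. As the printed starts show, genes with a run were among those that fell (Rpl34, Rpl13a) and among those that rose (Rps6, Rps10). With LPS against vehicle the median log2 fold change was -0.53 in the 24 genes with a run and -0.56 in the 33 without. This split depends on the annotated start. Rpl4 and Rps12, for example, were counted as without a run, although their windows hold a pyrimidine stretch away from the start. Which of the 33 genes make TOP mRNAs in these cells was not tested, so the medians do not compare TOP with other mRNAs.

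Ribosomal protein genes took a smaller share of the library in LPS-exposed cells than in vehicle cells, and vehicle replicate 3 lay between the other vehicle libraries and the LPS libraries. Of all counts, the 78 genes held 3.75%, 3.80% and 1.84% in vehicle replicates 1 to 3, 1.51%, 1.45% and 1.76% in LPS replicates 1 to 3, and 1.56%, 2.16% and 1.51% in calycosin plus LPS replicates 1 to 3. All LPS values were below all vehicle values, while calycosin plus LPS replicate 2 was above vehicle replicate 3. Counting error was small beside these gaps: the 95% Wilson interval of vehicle replicate 3, for instance, ran from 1.8377% to 1.8471%. The mean share was 1.57% ± 0.165 (SD, n = 3) with LPS and 3.13% ± 1.12 (SD, n = 3) with vehicle, a difference of -1.56 percentage points (exact permutation test, two-sided, p = 0.1, the smallest value that 3 libraries against 3 allow). Calycosin plus LPS, at 1.74% ± 0.361 (SD, n = 3), differed from LPS by 0.168 points, less than the spread of its own libraries (exact permutation p = 0.6), and from vehicle by -1.39 points (exact permutation p = 0.2).

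Leaving mitochondrially encoded genes out of the total raised every share and kept the order of the group means. The shares of nuclear-encoded counts were 3.90%, 3.94% and 2.36% in vehicle, 1.76%, 1.70% and 2.02% in LPS, and 1.89%, 2.33% and 1.87% in calycosin plus LPS replicates 1 to 3. On this scale neither treated group overlapped with vehicle, although calycosin plus LPS replicate 2 came within a small margin of vehicle replicate 3. The differences were -1.57 points for LPS against vehicle and -1.37 for calycosin plus LPS against vehicle (exact permutation p = 0.1 each), and 0.202 for calycosin plus LPS against LPS (exact permutation p = 0.4). The share held by the 20 most abundant nuclear genes was 9.18%, 9.18% and 14.4% in vehicle, 14.95%, 14.7% and 13.9% in LPS, and 12.9%, 10.4% and 14.5% in calycosin plus LPS replicates 1 to 3. The groups overlapped, since vehicle replicate 3 lay within the LPS range; its most abundant nuclear gene was Gm10925, annotated as an unprocessed pseudogene, with 2.12% of nuclear counts. Small and large subunit genes moved together: the ratio of their summed counts lay between 0.572 and 0.637 in all libraries, with overlapping groups. In bulk RNA, fewer ribosomal protein transcripts per cell and more of other transcripts per cell cannot be told apart.

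**Figure D1:**
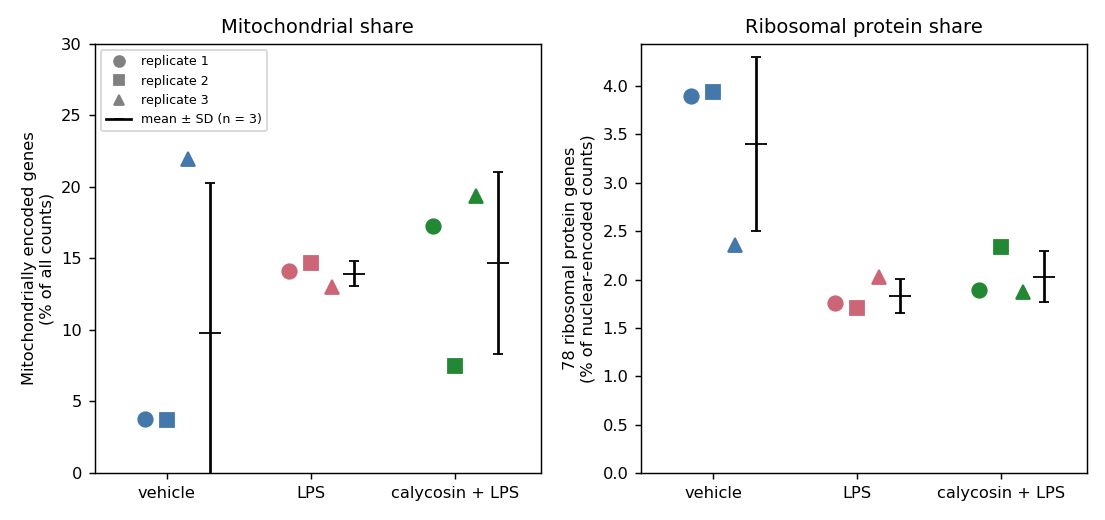
Percent of all counts on mitochondrially encoded genes (left) and percent of nuclear-encoded counts on the 78 ribosomal protein genes (right) in each library by group, with the mean ± SD of 3 libraries; the lower end of the vehicle bar on the left is cut at 0. Vehicle replicate 3 has 21.9% mitochondrial counts and a ribosomal protein share of 2.36%, where vehicle replicates 1 and 2 have 3.90% and 3.94%.

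Per transcript length, the order of the group means of the deposited TPM values differed. In vehicle, Rplp1, a protein of the stalk that recruits elongation factors, was highest at 3030 ± 1578 TPM (SD, n = 3), followed by Rpl19, which bridges the subunits, at 2334 ± 946 TPM. In LPS, Rps6, the S6 kinase substrate, was highest at 1475 ± 321 TPM, above Rps26 at 1301 ± 92.5 TPM, and Rplp1 was at 866 ± 145 TPM. In calycosin plus LPS, Rps6 was at 1487 ± 333 TPM and Rps26 at 1449 ± 101 TPM. Neighbours named here differed by less than the larger of their SDs, except Rps26 and Rplp1 in LPS. In vehicle replicate 3 alone Rps26 was at 1518, Rps6 at 1348, Rpl19 at 1244 and Rplp1 at 1208 TPM. Among vehicle libraries Rplp1 was thus highest in replicates 1 and 2 only. The median gene had a mean of 529 TPM over the 9 libraries. The lowest were Rpl3l, the striated muscle paralog of Rpl3, at 0.489 TPM and the pseudogene Rpl6l at 8.40 TPM. Across the 78 genes the mean TPM had a Pearson r of -0.23 with transcript length and of 0.02 with the number of processed copies named after the gene. The 21 genes with no such copy had a median of 476 TPM, the 28 with 1 or 2 had 563 TPM and the 29 with 3 or more had 475 TPM. Copies under other kinds of name, such as Rpl6l, were not counted. Transcript length and GC content, here and in the offsets, are those of the longest annotated transcript of each gene. That was 5179 bases for Rps15a, for instance, whichever transcript the cells express. By this measure members had short transcripts, with a median of 1076.5 bases against 2976 bases for all tested genes, and a GC content of 51.0% against 49.5%. How the authors treated reads that match both a gene and its processed copies is not given in the sources used here. Single levels are therefore uncertain for genes with processed copies of any name.

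LPS against vehicle lowered part of the set and raised a few genes. By edgeR's quasi-likelihood test with Benjamini-Hochberg (BH) adjustment over all tested genes, 24 of the 78 genes fell and 4 rose at an adjusted p below 0.05. In all tested genes 28.9% fell and 27.3% rose, so the share that fell (30.8%) was close to the background and the share that rose (5.13%) was below it. The median log2 fold change was -0.53 against -0.07 over all tested genes, and 66 of 78 estimates were below 0. In 6 genes all LPS libraries were below all vehicle libraries and in 4 all were above, where 31.3% and 29.5% of all tested genes were so separated. DESeq2 called 31 lower and 5 higher, beside 24.2% and 22.8% of its genes. Of the 78 genes 12 fell at least 2-fold, where 17.3% of all tested genes did. The subunits were alike, with 10 of 30 small-subunit and 14 of 48 large-subunit genes lower and a median of -0.53 in each.

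The counts of calls turned on single libraries. Without vehicle replicate 3, 61 genes fell and 6 rose with LPS against vehicle, where 34.1% of all tested genes fell and 29.8% rose, and the median was -0.81. With calycosin plus LPS replicate 2 left out as well, 62 fell and 6 rose, where 35.3% and 31.0% of all tested genes did. Leaving out vehicle replicate 1 or 2 or LPS replicate 1, 2 or 3 left 10, 9, 9, 11 and 15 genes lower and 1, 0, 1, 2 and 1 higher, with the median between -0.49 and -0.43. The shares that fell were then 11.5% to 19.2% of the members, below the 24.1% to 25.6% of all tested genes. Where only libraries with more than 10% mitochondrial counts were compared, vehicle replicate 3 stood alone against the 3 LPS libraries: Rpl3l was the 1 gene called lower, 0 were called higher (2 lower and 3 higher at an unadjusted p below 0.05, edgeR), where 20.3% and 20.8% of all tested genes were, and the median was 0.09. In that fit the lone vehicle library is assumed to vary like the other groups. A scaling to total counts without a composition factor moved the median of all genes to -0.77 and that of the members to -1.28, with 71 lower and 0 higher where 53.6% and 13.0% of all tested genes were, so the members stood 0.51 below all genes there and 0.46 below with TMM. With the log2 mitochondrial share as a covariate, 19 fell and 7 rose, where 28.8% and 29.0% of all tested genes did, 1 member fell at least 2-fold, and the median was -0.10 against -0.03 over all genes.

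**Figure D2:**
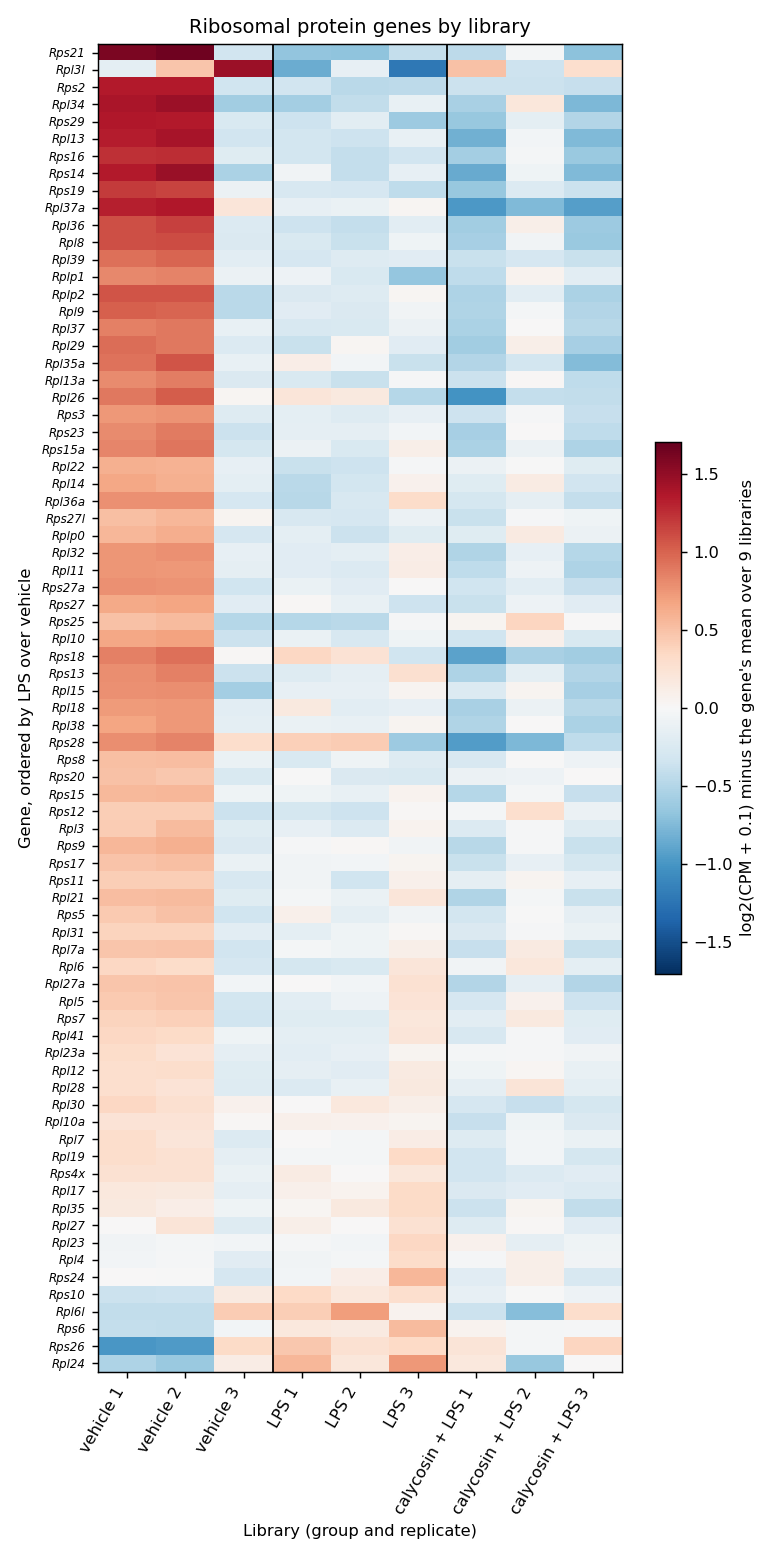
Level of 77 of the 78 genes (rows, ordered by the LPS over vehicle log2 fold change) in each of the 9 libraries (columns), as log2(CPM + 0.1) minus the gene's mean over the libraries; red is above and blue below the mean. Vehicle replicates 1 and 2 are red for most genes, vehicle replicate 3 resembles the LPS libraries, and Rps10, Rps6, Rps26 and Rpl24 near the bottom run the other way.

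Among small-subunit genes, Rps21, a small protein found only in eukaryotic ribosomes, fell most. It was at 140, 145 and 36.8 CPM in vehicle replicates 1 to 3, at 29.0, 28.6 and 34.7 CPM in LPS replicates and at 33.9, 45.1 and 28.3 CPM in calycosin plus LPS replicates. LPS and vehicle did not overlap, but vehicle replicate 3 lay just above the LPS libraries. The log2 fold change with LPS was -1.80 ± 0.43 (SE; edgeR, BH-adjusted p = 0.00547, between 4.39e-06 and 0.0245 when each library was left out in turn), and it was -2.27 without vehicle replicate 3. Against vehicle replicate 3 alone, in the comparison of libraries over 10% mitochondrial, it was -0.28 and was not called.

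Rps2, which lines the mRNA entry of the small subunit, had 103, 103 and 32.0 CPM in vehicle, 32.1, 29.5 and 29.7 CPM in LPS and 31.3, 31.2 and 30.7 CPM in calycosin plus LPS replicates 1 to 3. Vehicle replicate 3 was thus at the level of the 6 LPS-exposed libraries. The log2 fold change of LPS over vehicle was -1.38 ± 0.35 (SE; edgeR, BH-adjusted p = 0.00807), and calycosin plus LPS differed from LPS by 0.03. Rps29, a zinc-binding protein of the head, fell by 1.36 on the log2 scale, Rps16, whose tail reaches the tRNA in the P site, by 1.25 and Rps19, the gene most often mutated in Diamond-Blackfan anaemia, by 1.19. Against vehicle replicate 3 alone, the LPS means of Rps29, Rps16 and Rps19 were lower by 0.12, 0.14 and 0.23 on log2 CPM. These 5 small-subunit genes, Rps27l, Rpl37a and Rpl39 were the 8 of the 24 that stayed called when each library was left out in turn.

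Of the paralog pairs, Rps27l, a p53-induced relative of Rps27, had 73.1, 75.4 and 52.6 CPM in vehicle, 42.4, 42.0 and 47.7 CPM in LPS and 39.4, 50.2 and 48.5 CPM in calycosin plus LPS replicates 1 to 3. Every LPS-exposed library was below every vehicle library. Its log2 fold change with LPS was -0.61 ± 0.16 (SE; edgeR, BH-adjusted p = 0.00879), beside -0.57 ± 0.22 for Rps27 (edgeR, BH-adjusted p = 0.0472). Rpl3l lay between 0.0831 and 1.06 CPM, close to the limit of detection, with its highest value in vehicle replicate 3. It fell by 1.80 on the log2 scale (SE 0.66; edgeR, BH-adjusted p = 0.0409), with overlapping groups, and was not called without vehicle replicate 3 (-1.23). Rpl3, its widely expressed relative, had a log2 fold change of -0.39 and did not pass (edgeR, BH-adjusted p = 0.101).

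In the large subunit, Rpl37a, a zinc-binding protein, had 126, 129 and 57.8 CPM in vehicle, 45.3, 46.1 and 51.0 CPM in LPS and 25.4, 29.7 and 26.1 CPM in calycosin plus LPS replicates 1 to 3. The groups did not overlap in any comparison. It fell with LPS by 1.13 on the log2 scale (SE 0.26; edgeR, BH-adjusted p = 0.00429). Rpl39, a short protein in the wall of the exit tunnel, had 101, 105 and 46.8 CPM in vehicle, 43.5, 45.2 and 46.0 CPM in LPS and 40.7, 43.2 and 40.5 CPM in calycosin plus LPS replicates 1 to 3. Vehicle replicate 3 exceeded the highest LPS library by under 1 CPM, and the log2 fold change was -0.91 ± 0.25 (SE; edgeR, BH-adjusted p = 0.0118).

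Rpl34 had the widest gap within the vehicle group. Its levels were 167, 176 and 42.5 CPM in vehicle, 42.7, 47.9 and 58.5 CPM in LPS and 43.5, 73.3 and 37.8 CPM in calycosin plus LPS replicates 1 to 3, so vehicle replicate 3 was below all LPS libraries. The log2 fold change of LPS over vehicle was -1.37 ± 0.46 (SE; edgeR, BH-adjusted p = 0.0289), it was -1.84 without vehicle replicate 3, and it was 0.20 and not called in libraries over 10% mitochondrial. Rpl13a, which leaves the ribosome to repress inflammatory mRNAs in interferon-treated monocytes, fell by 0.77 (SE 0.27; edgeR, BH-adjusted p = 0.0327). On log2 CPM the LPS mean of Rpl13a was 1.06 below vehicle replicates 1 and 2 and 0.03 above vehicle replicate 3.

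Stalk genes, whose products bind the translational GTPases, fell in part. Rplp0 had 876, 904 and 483 CPM in vehicle, 525, 458 and 510 CPM in LPS and 514, 658 and 553 CPM in calycosin plus LPS replicates 1 to 3. The groups overlapped through vehicle replicate 3, and the log2 fold change with LPS was -0.60 ± 0.22 (SE; edgeR, BH-adjusted p = 0.0429). Rplp1 fell by 0.90 (SE 0.26; edgeR, BH-adjusted p = 0.014), and Rplp2, at -0.86 ± 0.33, did not pass (edgeR, BH-adjusted p = 0.052). On log2 CPM the LPS mean of Rplp1 was 1.17 below vehicle replicates 1 and 2 and 0.24 below vehicle replicate 3. Rpl5 and Rpl11, which carry 5S rRNA into the ribosome and bind Mdm2 when assembly fails, had log2 fold changes of -0.24 and -0.59, and Rps27a, made as a fusion with ubiquitin, of -0.58; none of these 3 passed.

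Of the 4 genes that rose with LPS, Rpl24, Rps6 and Rps10 are described. Rpl24, which joins the large subunit late and reaches across to the small one, had 168, 157 and 265 CPM in vehicle and 361, 279 and 404 CPM in LPS replicates 1 to 3. Its calycosin plus LPS libraries, at 274, 156 and 245 CPM, lay below all LPS libraries and across the vehicle range. The log2 fold change with LPS was 0.82 ± 0.26 (SE; edgeR, BH-adjusted p = 0.0224), and with calycosin plus LPS against LPS it was -0.63 ± 0.26, which did not pass (edgeR, BH-adjusted p = 0.0971).

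Rps6, which S6 kinases phosphorylate when growth signals are on, had 664, 654 and 848 CPM in vehicle, 989, 976 and 1277 CPM in LPS and 910, 854 and 864 CPM in calycosin plus LPS replicates 1 to 3. All LPS libraries were above all vehicle libraries, and calycosin plus LPS libraries lay between, without overlap on either side. It rose with LPS by 0.58 (SE 0.16; edgeR, BH-adjusted p = 0.0102). Rps10, a head protein that is ubiquitinated on stalled ribosomes, had 301, 306 and 433 CPM in vehicle and 491, 442 and 474 CPM in LPS, a log2 fold change of 0.44 ± 0.15 (SE; edgeR, BH-adjusted p = 0.0318). In each of these 3, vehicle replicate 3 was the vehicle library nearest to LPS, and none of them stayed called when each library was left out in turn. Rps6 and Rps10 had negative log2 fold changes of -0.09 and -0.23 on total counts, where all genes had a median of -0.77, and Rpl24 had 0.17.

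**Figure D3:**
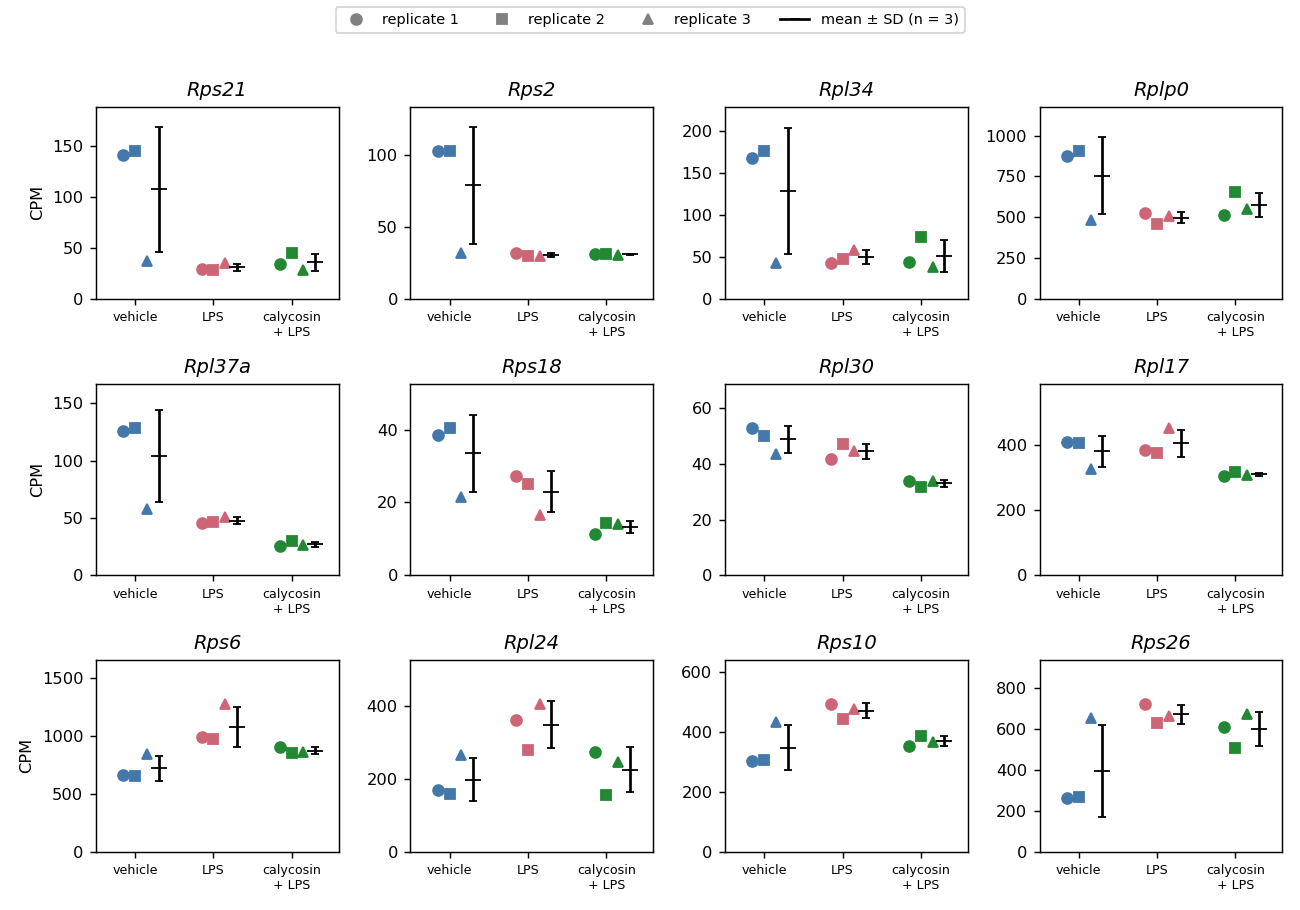
CPM of 12 ribosomal protein genes in each library by group (symbols for replicates 1 to 3) with the mean ± SD of 3 libraries; each axis starts at 0. In Rps21, Rps2, Rpl34 and Rplp0 vehicle replicate 3 (triangle) lies near the LPS libraries, in Rpl37a, Rps18, Rpl30 and Rpl17 the calycosin plus LPS libraries lie below all LPS libraries, and Rps6, Rpl24 and Rps10 are higher with LPS than with vehicle. In Rps26 vehicle replicate 3 lies within the LPS range, above vehicle replicates 1 and 2.

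With all 9 libraries, few ribosomal protein genes passed for calycosin plus LPS against LPS alone. The number that fell moved with the libraries, as given below. It was 0 without LPS replicate 2. Without vehicle replicate 3 and calycosin plus LPS replicate 2 it was 33 (42.3%, where 18.0% of all tested genes fell). The counts that follow are for all 9 libraries. By edgeR with BH adjustment 5 of 78 genes fell (6.41%) and 0 rose, where 12.9% of all tested genes fell and 16.1% rose; at an unadjusted p below 0.05 these counts were 11 and 0, and DESeq2 called 7 lower and 0 higher, beside 12.7% and 13.9% of its genes. The median log2 fold change was -0.16 against 0.02 over all tested genes with TMM scaling, and 0.14 against 0.33 on total counts, so the sign of the median depended on the scaling while its distance to all genes was -0.19 and -0.18. On total counts 0 genes were called in either direction, where 4.91% of all tested genes fell and 23.6% rose (0 lower and 1 higher at an unadjusted p below 0.05, edgeR). In 14 genes all calycosin plus LPS libraries were below all LPS libraries, and in 1, Rps25, all were above; among all tested genes 23.4% and 26.3% were so separated.

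The 5 genes were Rps28, Rpl37a, Rps18, Rpl30 and Rpl17. Rps18, a head protein that contacts the large subunit, had 38.4, 40.5 and 21.4 CPM in vehicle, 27.2, 25.1 and 16.7 CPM in LPS and 11.2, 14.4 and 14.0 CPM in calycosin plus LPS replicates 1 to 3. Every calycosin plus LPS library was below every other library. It fell against LPS by 0.80 on the log2 scale (SE 0.26; edgeR, BH-adjusted p = 0.0459, between 0.00873 and 0.148 when each library was left out in turn). Rpl37a, with the levels given above, fell by 0.81 against LPS (SE 0.26; edgeR, BH-adjusted p = 0.041) and by 1.94 against vehicle (SE 0.26; edgeR, BH-adjusted p = 0.000264).

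Rpl30, which also binds its own transcript in yeast, had 52.9, 50.1 and 43.5 CPM in vehicle, 41.8, 47.1 and 44.4 CPM in LPS and 33.9, 31.6 and 33.6 CPM in calycosin plus LPS replicates 1 to 3. LPS and vehicle overlapped, and calycosin plus LPS was below both. The log2 fold change against LPS was -0.43 ± 0.11 (SE; edgeR, BH-adjusted p = 0.0185). Rpl17, which narrows the exit tunnel together with Rpl4, had 408, 406 and 325 CPM in vehicle, 385, 376 and 452 CPM in LPS and 305, 316 and 307 CPM in calycosin plus LPS, and fell by 0.39 against LPS (SE 0.13; edgeR, BH-adjusted p = 0.0455). Rps28 had 92.5, 94.3 and 45.7 CPM in LPS and 36.4, 41.1 and 51.9 CPM in calycosin plus LPS; the groups overlapped through LPS replicate 3, and the log2 fold change was -0.85 ± 0.27 (SE; edgeR, BH-adjusted p = 0.0435).

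These calls also moved with the libraries. Leaving out vehicle replicate 1, 2 or 3 left 1, 2 and 11 genes lower against LPS, where in the last case 17.2% of all tested genes fell and 21.2% rose. Leaving out LPS replicate 1, 2 or 3 left 1, 0 and 3, and calycosin plus LPS replicate 1, 2 or 3 left 0, 1 and 0, where 8.20% to 10.2% of all tested genes fell; without vehicle replicate 1 or 2 it was 11.3% and 11.7%. Of the 5 genes, 0 stayed called in all of these. With vehicle replicate 3 and calycosin plus LPS replicate 2 both left out, 33 genes fell and 0 rose, where 18.0% and 20.6% of all tested genes did, and the median was -0.27. In libraries over 10% mitochondrial, 25 genes fell and 0 rose, where 15.3% and 17.5% of all tested genes did, with the same median of -0.27. With the mitochondrial covariate 31 fell and 2 rose, where 22.7% and 24.0% of all tested genes did, and the median was -0.19. Rpl37a, Rps18, Rpl17 and Rpl30 were among the genes called both without the pair of libraries and in libraries over 10% mitochondrial; Rps28 was in neither. Others called lower in both were Rps14 (-0.58 in each), Rpl13 (-0.50 in each) and Rps4x (-0.35 in each).

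Calycosin plus LPS against vehicle lowered 42 of 78 genes (53.8%) and raised 0, where 23.6% of all tested genes fell and 25.4% rose (edgeR, BH-adjusted; 49 lower and 0 higher at an unadjusted p below 0.05, and 46 and 0 by DESeq2, beside 20.3% and 20.3% of its genes). This comparison shares its vehicle libraries with that of LPS against vehicle and its calycosin libraries with that against LPS, so the 3 sets of values are given side by side and are not independent. The median log2 fold change was -0.60 against -0.00 over all genes, 17 genes fell at least 2-fold, where 11.9% of all tested genes did, and 19 of 30 small-subunit and 23 of 48 large-subunit genes were lower. In 15 genes all calycosin plus LPS libraries were below all vehicle libraries, where 27.1% of all tested genes were below and 29.1% above. The largest falls were those of Rpl37a (-1.94), Rps21 (-1.58), Rps14 (-1.51), Rpl13 (-1.48) and Rps29 (-1.41). Rps6, at 0.28 ± 0.16, was the 1 gene whose calycosin plus LPS libraries were all above the vehicle libraries, and it did not pass (edgeR, BH-adjusted p = 0.164).

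Without vehicle replicate 3, 64 genes fell and 4 rose against vehicle (among them Rps26, Rps6 and Rps10), where 29.0% and 29.3% of all tested genes did. With calycosin plus LPS replicate 2 left out as well, 68 fell and 5 rose, where 29.7% and 30.4% did. Leaving out vehicle replicate 1 or 2 left 17 genes lower in each case, calycosin plus LPS replicate 1 or 3 left 14 and 15, and the 4 other single libraries left 34 to 41. Without vehicle replicate 1 or 2 the members' share was 21.8% against 18.3% and 18.4% of all tested genes, and without calycosin plus LPS replicate 1 or 3 it was 17.9% and 19.2% against 16.9% and 17.1%, so these shares were near the background. In the other 4 cases 21.8% to 22.8% of all tested genes fell. Of the 42 genes, 13 stayed called when each library was left out in turn: Rpl37a, Rps29, Rps28, Rps2, Rps18, Rpl26, Rps16, Rps19, Rpl35a, Rpl39, Rpl32, Rpl27a and Rpl30. Against vehicle replicate 3 alone, in libraries over 10% mitochondrial, 3 fell (Rpl37a by 1.17, Rpl13 by 0.46 and Rps16 by 0.40 on the log2 scale), 0 rose and the median was -0.15, where 13.3% and 17.2% of all tested genes fell and rose. On total counts 58 fell and 0 rose with all libraries, where 35.6% and 14.1% of all tested genes did, beside a median of -0.40 for all genes. With the mitochondrial covariate 39 fell and 0 rose, where 24.5% and 27.9% of all tested genes did, 2 members fell at least 2-fold, and the median was -0.31.

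**Figure D4:**
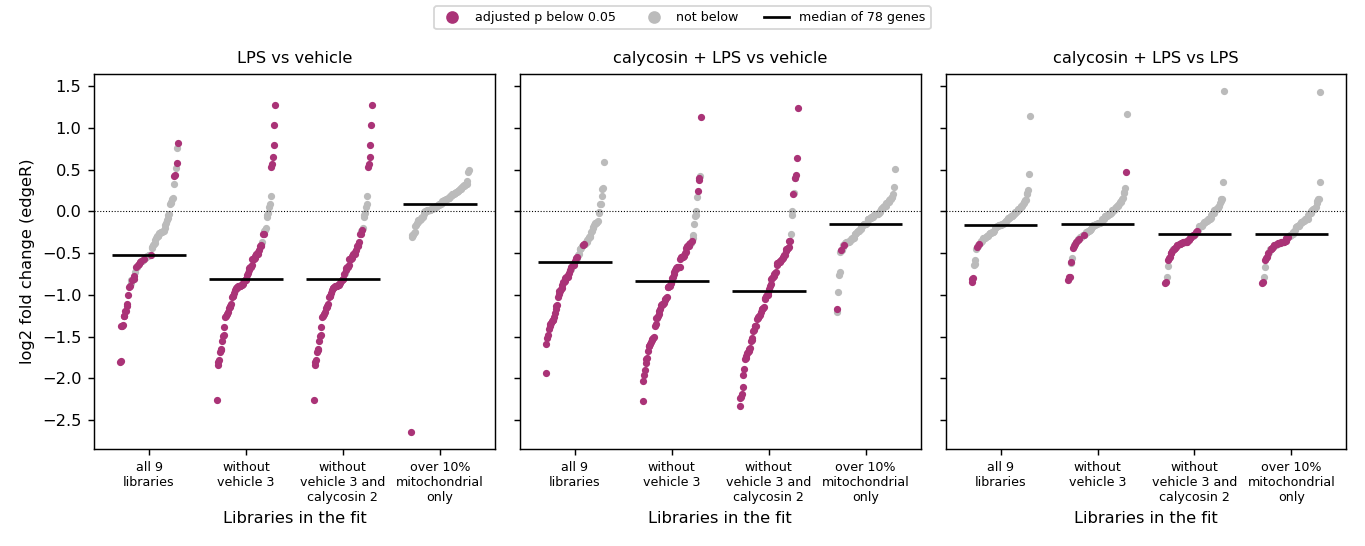
Log2 fold changes of the 78 genes (points, sorted from low to high in each column; edgeR) for 3 comparisons, with all 9 libraries, without vehicle replicate 3, without vehicle replicate 3 and calycosin plus LPS replicate 2, and in libraries over 10% mitochondrial. The median (black line) for LPS against vehicle is -0.53, -0.81, -0.81 and 0.09, and that for calycosin plus LPS against LPS is -0.16, -0.14, -0.27 and -0.27.

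Libraries of one group also differed from each other. On log2 CPM, vehicle replicates 1 and 2 exceeded vehicle replicate 3 by a median of 0.80 over the 78 genes, and 71 genes were higher in replicates 1 and 2, where the median over all tested genes was 0.01. LPS libraries were 0.76 below vehicle replicates 1 and 2 by the median and 0.10 above vehicle replicate 3. Calycosin plus LPS replicate 2 exceeded replicates 1 and 3 by a median of 0.31, and 68 of the 78 genes were higher in it, where the median over all tested genes was 0.03. Genes that went the other way in vehicle included Rpl24, Rpl3l, Rpl6l, Rps10, Rps26 and Rps6. Rps26, at the mRNA exit of the small subunit, had 263 and 269 CPM in vehicle replicates 1 and 2, 654 CPM in vehicle replicate 3, and 627 to 720 CPM in LPS; its log2 fold change was 0.76 and not called with all libraries (edgeR, BH-adjusted p = 0.066), and 1.28 and called without vehicle replicate 3.

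The gap in vehicle and the gap in calycosin plus LPS, which share no library, were compared gene by gene. Rpl34, Rps14 and Rpl13 were among the 5 largest in both, with 2.01, 1.94 and 1.69 in vehicle and 0.85, 0.73 and 0.74 in calycosin plus LPS. Across the 78 genes Pearson's r was 0.80 and Spearman's rho 0.67, and across all 14458 tested genes they were 0.47 and 0.59. These are correlations across genes, which are not independent replicates, and in each gap the libraries with fewer mitochondrial counts were on one side. The vehicle gap had an r of 0.06 with transcript length and 0.02 with GC content over the 78 genes.

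**Figure D5:**
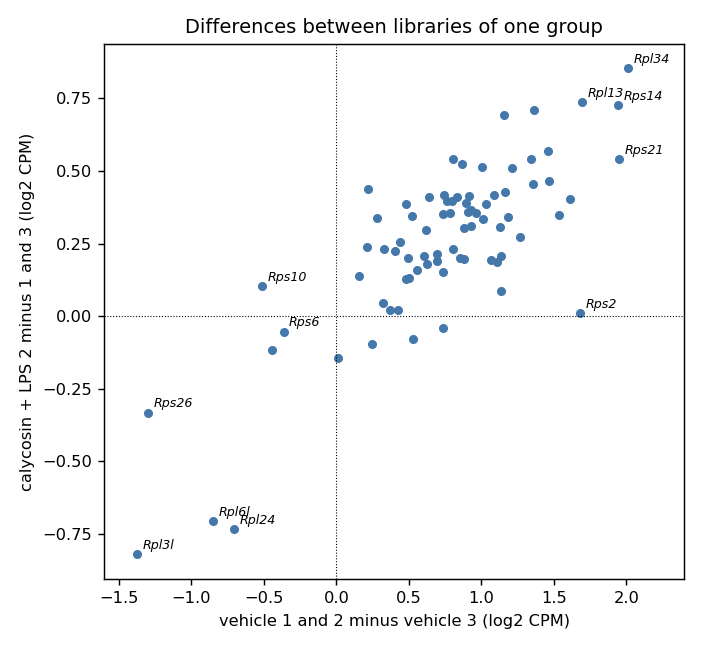
For each of the 78 genes, the log2 CPM of vehicle replicates 1 and 2 minus vehicle replicate 3 (x axis) and of calycosin plus LPS replicate 2 minus replicates 1 and 3 (y axis); dotted lines mark 0. Most genes lie above 0 on both axes, Rpl34, Rps14 and Rpl13 at the upper right, while Rpl3l, Rpl6l, Rpl24 and Rps26 lie below 0 on both.

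Related genes of the translation apparatus were taken from lists. Of 8 ribosomal protein genes whose names the pattern misses, Rack1, a scaffold on the small subunit head, fell with LPS by 0.36 (SE 0.13; edgeR, BH-adjusted p = 0.0397). Fau and Rpl22l1 fell with calycosin plus LPS against vehicle by 0.76 and 0.73 (edgeR, BH-adjusted p = 0.0453 and 0.0284). With all 9 libraries Rpsa, Rps3a1, Rpl36al and Rpl7l1 passed in no comparison. Without vehicle replicate 3, 6 of the 8 fell with LPS and 6 with calycosin plus LPS against vehicle. Of all tested genes 34.1% and 29.0% fell there. The median of the 8 with LPS was -0.32 with all libraries and -0.50 without vehicle replicate 3. In libraries over 10% mitochondrial it was 0.16. Among 22 translation factors and related genes with TOP mRNAs, 6 rose and 2 fell with LPS, with a median of 0.07 (-0.01 without vehicle replicate 3, 0.15 in libraries over 10% mitochondrial). The shares of all tested genes given above for each comparison are the background of these counts. Pabpc1, the poly(A)-binding protein, rose by 1.17 (SE 0.31; edgeR, BH-adjusted p = 0.00902). Its levels were 1222, 1191 and 2735 CPM in vehicle and 3870, 4048 and 3689 CPM in LPS replicates 1 to 3. Gas5, a TOP RNA that hosts small nucleolar RNAs, was at 65.4 ± 0.833 CPM in vehicle, 37.8 ± 3.98 in LPS and 87.1 ± 4.89 in calycosin plus LPS (SD, n = 3 libraries each); it fell with LPS by 0.79 and was 1.20 higher with calycosin plus LPS than with LPS (SE 0.11 each; edgeR, BH-adjusted p = 0.000174 and 0.000127). Against LPS, 1 of these 22 genes rose and 4 fell with calycosin.

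Of 30 initiation factors and their regulators, 12 rose and 5 fell with LPS (13 and 9 without vehicle replicate 3, 13 and 5 in libraries over 10% mitochondrial), and 1 rose and 8 fell with calycosin plus LPS against LPS. Eif4ebp2, a repressor of cap-dependent initiation, fell with LPS by 1.94 (SE 0.12; edgeR, BH-adjusted p = 9.47e-07), and Eif4a1, the cap-binding complex helicase, fell with calycosin against LPS by 0.71 (SE 0.10; edgeR, BH-adjusted p = 0.000889). Among 15 genes that signal growth to the ribosome, 5 rose and 5 fell with LPS. Myc, a driver of ribosomal protein transcription, went from 0.246 ± 0.239 CPM in vehicle to 15.3 ± 1.26 in LPS and 11.7 ± 3.34 in calycosin plus LPS (SD, n = 3 libraries each), while its relative Mycn went from 413 ± 105 to 139 ± 8.74 and 90.6 ± 13.1 CPM. Mycn fell with LPS by 1.57 and with calycosin against LPS by 0.62 (edgeR, BH-adjusted p = 7.45e-05 and 0.0311).

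The mitochondrion depends on nuclear genes as well. Of 44 respiratory chain genes encoded in the nucleus, 14 fell and 2 rose with LPS, with a median log2 fold change of -0.40, where 28.9% and 27.3% of all tested genes fell and rose. Without vehicle replicate 3, 33 fell and 2 rose with a median of -0.65, and in libraries over 10% mitochondrial 1 fell and 2 rose with a median of 0.05. For this list 28 fell and 2 rose with calycosin plus LPS against vehicle, with a median of -0.67; in libraries over 10% mitochondrial 8 fell and 1 rose, with a median of -0.26. Their median gap between vehicle replicates 1 and 2 and vehicle replicate 3 was 0.66, beside 0.80 for the cytosolic ribosomal proteins. Sdhd, a membrane anchor of succinate dehydrogenase, fell with LPS by 1.59 and Cycs, cytochrome c, rose by 1.55 (edgeR, BH-adjusted p = 0.000559 and 1.13e-05). Of 78 mitochondrial ribosomal protein genes, which build a separate ribosome, 29 fell and 13 rose with LPS, with a median of -0.23. Without vehicle replicate 3, 38 fell and 14 rose with a median of -0.37, and in libraries over 10% mitochondrial 21 fell and 12 rose with a median of -0.03. Mrps6 fell most, by 2.64 (edgeR, BH-adjusted p = 4.15e-05); 4 fell and 6 rose with calycosin plus LPS against LPS.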

How the data were processed

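Polyadenylated RNA of 9 libraries was analysed. The authors deposited whole-number read counts for each gene, and TPM values, scaled by the authors for transcript length and depth, were deposited beside them; no column was left without a sample (0 in each table). Per the submitters' processing notes, Trimmomatic 0.36, HISAT2 2.0, StringTie 1.3.3b and build mm10 were used. Neither a read counter nor a strand setting is named in those notes. Counts were filtered (filterByExpr), scaled by TMM (factors 0.786 to 1.42) and fitted with edgeR 4.0.16 in R 4.3.3 over all 9 libraries with 1 term per group; P values of the quasi-likelihood F test were BH-adjusted over 14458 genes (threshold 0.05). Shares were compared by exact permutation. Intervals cover counting error only, and p-values measure the spread between cultures of one line. Gene annotation was GENCODE M21; RefSeq gave the start sequences. No pair of libraries of one group agreed within sampling noise. The main edgeR model alone was tested on simulated counts, which held no library that differs from its group. Named genes were the 5 largest called changes per direction and comparison, the 5 most abundant, and listed stalk, 5S, ubiquitin-fusion and paralog genes, with up to 2 called genes per related list; Rps26, Rps16, Rps19, Rps25 and others named in counts were chosen after their values were seen. A few genes that this rule or a list names are not reported here. Members, lists and tests were chosen with earlier results of these data known. Alternatives covered scaling, filters, DESeq2 1.42.0, limma 3.58.1 on log2(TPM + 1), GC and length offsets, a mitochondrial covariate and left-out libraries.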

Additional observations from a re-analysis of the deposited data

How the results depend on the processing

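With total counts in place of TMM, genes called higher and lower numbered 0 and 71 for LPS against vehicle. For calycosin plus LPS against LPS 0 were lower. Upper quartile factors gave 0 and 53, and 1, beside 21.9% and 37.2%, and 11.1%, of all tested genes. Without a filter on low counts 2 rose with LPS and 0 fell with calycosin against LPS, beside 14.2% and 5.38% of all tested genes. Without mitochondrially encoded genes 3 fell with calycosin against LPS, beside 12.7% of all tested genes. With limma on log2(TPM + 1) and on log2(TPM + 0.1), 0 rose and 55 fell with LPS. Of all tested genes 10.2% rose and 48.2% fell on the first scale, and 10.3% and 48.2% on the second. With calycosin against LPS 0 fell, beside 2.32% and 2.31% of all tested genes. Against vehicle 20 fell (25.6% of the members, beside 25.7% and 24.5% of all tested genes). A transcript length offset gave 17 lower with LPS and 28 lower for calycosin against vehicle. These were 21.8% and 35.9% of the members, beside 27.3% and 23.5% of all tested genes. A GC offset gave 7 higher and 16 lower with LPS, beside 28.8% and 26.8% of all tested genes. It gave 10 lower for calycosin against LPS, beside 17.3%, and 2 higher against vehicle, beside 24.9%. A mitochondrial covariate gave 7 higher with LPS, and 2 higher and 31 lower for calycosin against LPS. Shares of all tested genes with total counts, the covariate and left-out libraries are given above. Without vehicle 3 and calycosin plus LPS 2, counts lower were 62 for LPS against vehicle, 33 for calycosin plus LPS against LPS and 68 against vehicle, with 5 higher in the last. In libraries over 10% mitochondrial they were 1 (0 higher), 25 and 3. The cause of these shifts was not tested.

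With each library left out in turn, 0 to 6 genes rose and 9 to 61 fell with LPS against vehicle. Of all tested genes 22.2% to 29.8% rose and 24.1% to 34.1% fell there. For calycosin plus LPS against LPS 0 to 1 rose and 0 to 11 fell, beside 11.3% to 21.2% and 8.20% to 17.2%. Against vehicle 0 to 4 rose and 14 to 64 fell, beside 19.5% to 29.3% and 16.9% to 29.0%. The share of all counts for calycosin plus LPS minus LPS ranged from -0.03953 to 0.2861 points and turned negative without calycosin plus LPS replicate 2. The other differences in share of all or of nuclear-encoded counts kept their sign in the settings run.

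Directions turned for many genes with LPS against vehicle, and the single genes given here are examples. In libraries over 10% mitochondrial 59 of the 78 estimates were above 0 and 19 below, against 12 and 66 with all libraries. On total counts 2 were above 0 and 76 below. By log2 CPM the LPS libraries exceeded vehicle replicate 3 in 60 of the 78 genes, among them Rplp2 (0.32), Rpl5 (0.30) and Rps27a (0.24), and were below it in 18. In libraries over 10% mitochondrial Rpl13 was at 0.0409, Rpl13a at 0.0154, Rpl34 at 0.20, Rplp0 at 0.0224, Rps14 at 0.32, Rps27 at 0.0311 and Rps3 at 0.0186. On total counts Rpl17 was at -0.63, Rpl4 at -0.55, Rps10 at -0.23 and Rps6 at -0.0938, and on log2(TPM + 1) and log2(TPM + 0.1) alike Rps10 was at -0.37 and Rps6 at -0.23.

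The labels do not say whether replicate numbers pair the samples. Same-numbered libraries had correlations of their deviations from -0.17 to 0.36, and other pairs from -0.47 to 0.36. Not every library correlated best with its own number. The deviations were taken from means of 3 libraries, and 2 libraries differed widely from their groups, so this check cannot exclude pairing. With a replicate block, 5 genes rose and 19 fell with LPS against vehicle, beside 27.0% and 27.2% of all tested genes. With calycosin plus LPS 4 fell against LPS and 39 fell against vehicle, beside 11.8% and 21.9% of all tested genes. Depth was ample for all genes but Rpl3l, whose 124 summed counts limit its precision.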
